A study of Homo sapiens with 27 samples.

Results

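The genes described here are 37 readouts of amino acid supply and of the integrated stress response in T47D cells, a luminal breast cancer cell line. They were chosen by name: 20 genes for cytosolic aminoacyl-tRNA synthetase subunits, 11 genes for regulators and stress targets of the transcription factor ATF4, and 6 genes for enzymes of asparagine, serine and one-carbon metabolism. All 37 were among the 26485 genes of the count file, and all 37 passed the filter on low counts, together with 14789 genes in all. RNA-seq was performed on 4 lines with 3 libraries each. The control line carried the empty vector. The other lines carried a truncated form of the transcription factor GATA3, delivered by lentivirus with a Ty1 tag and selected with puromycin: the X308 splice site deletion (Splice del), the C321 frameshift (C321fs) or the A333 frameshift (A333fs). Every line kept its own GATA3 gene. Each mutant was 1 stably transduced line, so the libraries of a line measure the spread within that line, which may be technical, and a difference between lines cannot be told apart from a difference between transduced populations.

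Aminoacyl-tRNA synthetases attach each amino acid to its tRNA and so supply the ribosome. When amino acids run short or the endoplasmic reticulum is stressed, kinases phosphorylate the initiation factor eIF2, general translation falls, and the mRNA of ATF4 is translated more. ATF4, often as a dimer with a C/EBP protein, then raises the mRNAs of synthetases, of amino acid transporters, of asparagine and serine synthesis enzymes, and of regulators such as DDIT3 and TRIB3. Because much of the control of ATF4 is at the level of translation, its mRNA is only a partial measure of its activity.

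Dimers of ATF4 and C/EBP proteins are known to bind a composite element that reads TGATGNAA, where N is any base. The promoters of the genes, taken from RefSeq (GRCh38.p14) as 250 bases before the gene start and 50 after it, were searched on both strands for these letters, to show which of the genes hold the element close to the start. A promoter was found for 31 of the 37 genes, and 8 of them (25.8%) held the element, against 1003 of all 27305 promoters (3.67%) and 172 of the 10620 promoters of tested genes (1.62%). These 10620 were matched by identical gene symbol only. The 37 genes were also matched by synonym, such as AARS1 for AARS, so the 1.62% is not built alike. Among synthetases 6 of 16 promoters held it (37.5%). The 8 windows of 60 bases are given 5′ to 3′ on the strand of the gene, with the element in capitals. Where the capitals begin with TTGC, the element lies on the other strand, where it reads TGATGCAA.
AARS, chr16:70289660-70289719, minus strand: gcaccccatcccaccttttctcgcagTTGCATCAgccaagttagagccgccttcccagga
CARS, chr11:3057392-3057451, minus strand: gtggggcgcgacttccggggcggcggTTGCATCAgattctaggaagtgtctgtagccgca
IARS, chr9:92293677-92293736, minus strand: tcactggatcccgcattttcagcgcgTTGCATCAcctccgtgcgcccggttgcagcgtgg
MARS, chr12:57488038-57488097, plus strand: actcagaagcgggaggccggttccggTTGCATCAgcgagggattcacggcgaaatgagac
NARS, chr18:57621789-57621848, minus strand: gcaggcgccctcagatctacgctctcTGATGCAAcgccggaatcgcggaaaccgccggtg
TARS, chr5:33440941-33441000, plus strand: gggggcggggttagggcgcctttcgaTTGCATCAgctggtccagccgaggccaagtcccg
CHAC1, chr15:40953236-40953295, plus strand: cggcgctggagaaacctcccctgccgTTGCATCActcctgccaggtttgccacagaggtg
ASNS, chr7:97872443-97872502, minus strand: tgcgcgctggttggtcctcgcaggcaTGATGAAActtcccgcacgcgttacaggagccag
In 7 of these genes the element had the form TGATGCAA, and in ASNS it read TGATGAAA. Counting the first transcribed base as 0, the element began at -187 in AARS, -209 in CHAC1 and -68 in ASNS, and between -13 and 14 in CARS, IARS, MARS, NARS and TARS. A match is a string of letters, and binding was not measured here.

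Libraries held 27872208 to 36788024 counted fragments, and levels are given as CPM, the counts scaled to a common total with TMM-normalized library sizes. TMM factors were 0.884 to 0.943 in control libraries and 1.01 to 1.05 in mutant libraries. The luminal marker list was high in every library, with a summed level of its 9 genes of 18221 to 21444 CPM in control and 12056 to 15002 CPM in mutant cells, and the part of this difference in the results was not tested. Most of this sum was keratins, with KRT8 at 6957 to 8479 CPM in control and 3566 to 5664 CPM in mutant cells, while EPCAM was at 195 to 224 CPM in control and 258 to 283 CPM in mutant cells. In bulk RNA, fewer cells of a kind and less RNA per cell cannot be told apart. The 3 basal markers summed to at most 1.29 CPM, the 2 endothelial markers to at most 0.0957 CPM, and the 3 blood markers to between 2.71 and 4.78 CPM, nearly all of it CD68, with no count of PTPRC. Fibroblast markers summed to 48.4 to 59.9 CPM in control and 32.0 to 49.3 CPM in mutant cells, most of it COL1A1. LUM, of the same list, went the other way in Splice del and A333fs cells. It was at 0.0962 to 0.237 CPM in control, 1.29 to 2.30 with Splice del, 0.208 to 0.486 with C321fs and 4.05 to 5.62 with A333fs. Total GATA3 was 1281 ± 50.8 CPM (SD, n = 3) in control cells and 1001 ± 45.0, 1142 ± 12.5 and 1016 ± 11.03 CPM in cells with Splice del, C321fs and A333fs, and the counts cannot tell the introduced mRNA apart from that of the cell's own gene. Libraries also differed in how counts depended on the GC content of exons. The slope of log2 CPM across genes, per 10 percentage points of GC, was 0.107 to 0.187 in control libraries and -0.216 to 0.0130 in mutant libraries.

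Per length, in FPKM, which is CPM divided by the exon length in kilobases, the levels of the 37 genes in control cells ran from 3.95 to 440. STC2, a secreted glycoprotein, had the highest (440 FPKM), followed by AARS (192), ATF4 (160), SHMT2 (159) and PHGDH (154). CHAC1 (3.95) and PPP1R15A (4.24) had the lowest. The deposited length of VARS sums copies on 7 sequence names of the assembly and that of CARS copies on 2, so their FPKM (14.3 and 11.7) understate their place in this order.

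The first question was whether the genes differed between mutant and control cells. In an F-test over the 4 lines (edgeR's quasi-likelihood test, Benjamini-Hochberg adjusted p below 0.01), 32 of the 37 genes differed, against 8305 of all genes tested (56.2%). A gene was called up- or down-regulated when it passed this adjusted p and its fold change was over 1.5. In Splice del cells 8 of the 37 genes were down-regulated and 1 was up-regulated, where 4.53% and 6.21% of all genes were called. In C321fs cells 3 were down-regulated and 1 up-regulated (2.26% and 4.63% of all genes). In A333fs cells 5 were down-regulated and 2 up-regulated, and these shares of the list compare with 6.81% and 5.46% of all genes. Most changes were smaller than the fold change limit. At the adjusted p alone 25 genes were lower and 4 higher in Splice del cells (22.4% and 18.7% of all genes), 18 lower and 3 higher in C321fs cells (20.7% and 16.1%), and 15 lower and 8 higher in A333fs cells (26.4% and 21%). The median log2 fold change of the 37 genes was -0.33, -0.24 and -0.17 (Splice del, C321fs, A333fs), where the median of all genes tested was 0.03, 0.02 and 0.01. These 3 comparisons share the control libraries, so they are not independent of each other.

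**Figure D1:**
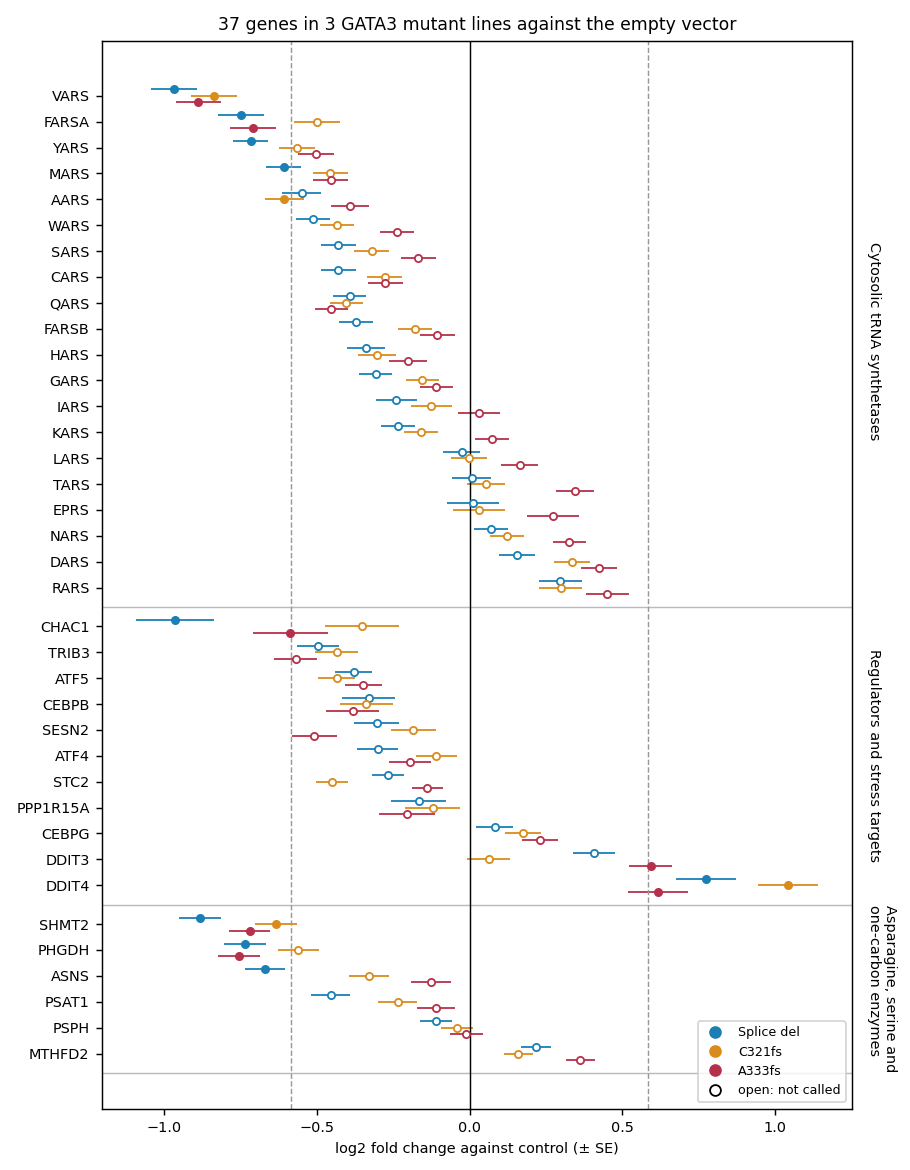
Log2 fold change of each of the 37 genes against control (x axis, with standard error) in Splice del (blue), C321fs (orange) and A333fs cells (red), grouped by role. Filled points are called genes, open points are not, and dashed lines mark the fold change of 1.5. VARS and SHMT2 are called lower in each line, and DDIT4 is called higher in each line.

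Among the 20 synthetase genes, 14 were lower and 1 was higher at the adjusted p in Splice del cells, 10 were lower and 2 higher in C321fs cells, and 8 were lower and 4 higher in A333fs cells. The median log2 fold change was -0.36, -0.23 and -0.14. Called genes were VARS, FARSA, YARS and MARS in Splice del cells, VARS and AARS in C321fs cells, and VARS and FARSA in A333fs cells, all of them lower. No synthetase was called higher.

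VARS, the valyl-tRNA synthetase (chromosome 6), had the largest decrease of the synthetases in each line. Its levels were 342, 426 and 374 CPM in the control libraries, 187, 187 and 210 with Splice del, 216, 205 and 218 with C321fs, and 199, 200 and 217 with A333fs. Every mutant library was thus below every control library, and the 3 mutant lines overlapped each other. In the fit the log2 fold change was -0.97 ± 0.07 (SE), -0.84 ± 0.07 and -0.89 ± 0.07 in the order Splice del, C321fs and A333fs, which all later triplets follow (adjusted p = 9.47e-08, 1.06e-06 and 1.79e-07). VARS also had the second highest exon GC content of the 37 genes (62.5%).

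FARSA and FARSB encode the 2 subunits of phenylalanyl-tRNA synthetase. FARSA (chr19:12922470-12933744) had 184, 219 and 190 CPM in control libraries, 114, 114 and 125 with Splice del, 154, 129 and 136 with C321fs, and 122, 118 and 122 with A333fs. All 9 mutant libraries were below the control libraries, and the C321fs libraries were above those of the other mutants. The log2 fold change was -0.75 ± 0.07, -0.50 ± 0.07 and -0.71 ± 0.07 in the same order of lines (adjusted p = 1.25e-06, 7.26e-05 and 1.62e-06), so that C321fs did not reach the fold change limit. FARSB, the other subunit, had log2 fold changes of -0.37 ± 0.06 in Splice del cells (adjusted p = 5.8e-05), -0.18 ± 0.06 in C321fs cells (0.016) and -0.11 ± 0.06 in A333fs cells (0.12). The GC content of its exons was 42.8%, against 61.7% for FARSA. When each library was corrected for its trend over GC content and length (described further on), FARSB was at -0.57, -0.38 and -0.36 and FARSA at -0.47, -0.27 and -0.30, so the order of the subunits depended on this correction.

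YARS, the tyrosyl-tRNA synthetase (chr1:32775239-32818032), had 192, 208 and 183 CPM in control, 119, 114 and 122 with Splice del, 123, 138 and 134 with C321fs, and 137, 138 and 138 with A333fs libraries. Every mutant library was below the control libraries, with Splice del lowest. The fitted log2 fold change was -0.72 ± 0.06, -0.56 ± 0.06 and -0.50 ± 0.06 (adjusted p = 1.61e-07, 3.55e-06 and 3.62e-06). An exon of YARS overlaps S100PBP on the other strand by 172 bases, and counting did not use the strand.

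MARS, the methionyl-tRNA synthetase (chr12:57487953-57516655), had 362, 404 and 359 CPM in control, 246, 240 and 252 with Splice del, 263, 279 and 277 with C321fs, and 268, 264 and 288 with A333fs libraries. It was lowest in Splice del, with no overlap with any other line. In the fit the log2 fold change was -0.61 ± 0.06, -0.46 ± 0.06 and -0.45 ± 0.06 (adjusted p = 7.31e-07, 1.81e-05 and 7.78e-06). Without the second control library the value in Splice del cells was -0.55 and no longer a call.

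AARS, the alanyl-tRNA synthetase (chr16:70252394-70289509), had 625, 694 and 604 CPM in control, 428, 431 and 455 with Splice del, 403, 416 and 445 with C321fs, and 482, 466 and 518 with A333fs libraries. Its control libraries were above all others, and A333fs lay between control and the other mutants. The log2 fold change was -0.55 ± 0.06, -0.61 ± 0.06 and -0.39 ± 0.06 (adjusted p = 4.23e-06, 3.96e-06 and 6.83e-05). The C321fs call was lost without the second control library or without the first C321fs library, with values down to -0.55.

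At the other end, RARS and DARS, the arginyl- and aspartyl-tRNA synthetases, had the highest log2 fold changes of the synthetases. RARS had 120, 135 and 136 CPM in control, 166, 159 and 155 with Splice del, 143, 174 and 164 with C321fs, and 178, 187 and 171 with A333fs libraries, so that each mutant library exceeded each control library. Its log2 fold change was 0.30 ± 0.07, 0.30 ± 0.07 and 0.45 ± 0.07 (adjusted p = 0.00219, 0.00256 and 5.49e-05). DARS gave 0.16 ± 0.06, 0.33 ± 0.06 and 0.42 ± 0.06 (adjusted p = 0.0337, 0.000276 and 1.83e-05), with the first of these not past the test. Both had low GC content in their exons, 41.3% for RARS and 38.8% for DARS, the lowest of the 37 genes. TARS and NARS were higher in A333fs cells, with log2 fold changes of 0.34 and 0.33, and not past the test in the other lines. With the GC and length trend removed, TARS and NARS did not pass it in A333fs (0.13 and 0.07) and were lower in Splice del cells (-0.17 and -0.14). EPRS and LARS did not pass it in any line against control as fitted, and with the trend removed EPRS was lower in Splice del (-0.20) and LARS in Splice del (-0.28) and C321fs cells (-0.23). The other 9 synthetases (CARS, GARS, HARS, IARS, KARS, QARS, SARS, WARS and FARSB) were lower at the adjusted p in Splice del cells, with log2 fold changes from -0.51 for WARS to -0.23 for KARS.

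**Figure D2:**
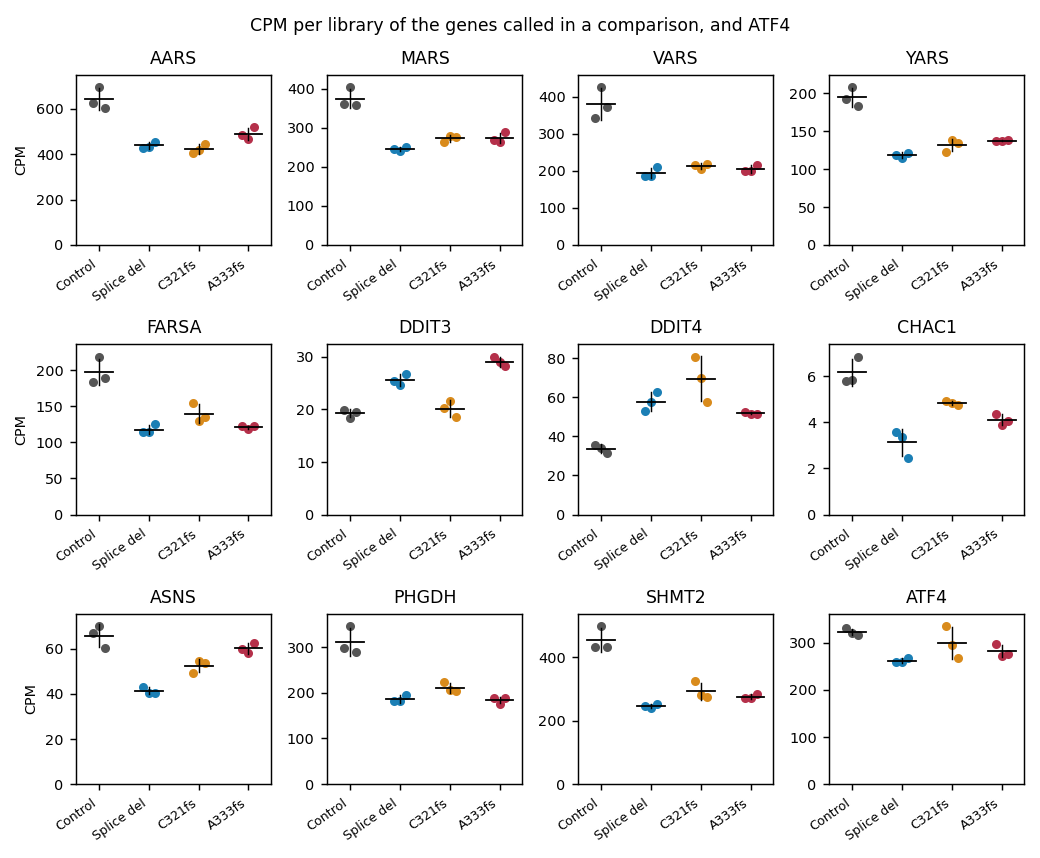
CPM (y axis, from 0) in each library of the 4 lines for the 11 genes called in any comparison and for ATF4. Points are libraries, horizontal bars the mean and vertical bars the SD of 3 libraries. Control libraries are highest for VARS, SHMT2 and PHGDH and lowest for DDIT4, and A333fs libraries are highest for DDIT3.

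The 6 metabolic enzymes did not move as one, with 4 lower and 1 higher at the adjusted p in Splice del, 4 lower in C321fs, and 2 lower and 1 higher in A333fs cells. SHMT2, the mitochondrial serine hydroxymethyltransferase (chr12:57229573-57234935), had 434, 499 and 433 CPM in control, 247, 241 and 254 with Splice del, 324, 280 and 276 with C321fs, and 272, 273 and 285 with A333fs libraries. Control libraries stood above all mutant libraries, and Splice del below C321fs and A333fs. The fitted log2 fold change was -0.88 ± 0.07, -0.63 ± 0.07 and -0.72 ± 0.07 (adjusted p = 1.02e-07, 5.36e-06 and 6.07e-07), and the call in C321fs cells was lost without the second control library (-0.57). SHMT2 shares 33 exon bases with NDUFA4L2 on the other strand.

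PHGDH, which catalyses the first step of serine synthesis (chr1:119711796-119744226), had 298, 346 and 289 CPM in control, 183, 182 and 196 with Splice del, 224, 206 and 203 with C321fs, and 188, 176 and 189 with A333fs libraries. Its log2 fold change was -0.73 ± 0.07, -0.56 ± 0.07 and -0.75 ± 0.07 (adjusted p = 6.12e-07, 1.35e-05 and 3.75e-07), a call in Splice del and A333fs cells. PSAT1, the next enzyme of the pathway, gave -0.45 ± 0.06, -0.24 ± 0.06 and -0.11 ± 0.06 (adjusted p = 2.58e-05, 0.00582 and 0.142), and -0.64, -0.43 and -0.37 with the trend removed, where it also passed the test in A333fs cells. PSPH, the last enzyme, did not pass the test in any line, with values between -0.11 and -0.01, and its counts are uncertain because the genome holds a near-identical copy.

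ASNS, the asparagine synthetase and a standard ATF4 target (chr7:97852117-97872542), had 67.1, 70.1 and 60.3 CPM in control, 43.2, 40.5 and 40.5 with Splice del, 49.1, 54.6 and 53.6 with C321fs, and 59.8, 58.1 and 62.8 with A333fs libraries. The A333fs libraries overlapped control, C321fs lay below both, and Splice del was lowest. Its log2 fold change was -0.67 ± 0.07, -0.33 ± 0.07 and -0.13 ± 0.07 (adjusted p = 1.2e-06, 0.000777 and 0.105). With the trend removed, the A333fs value was -0.21 and past the test (edgeR, adjusted p = 0.00341). MTHFD2, a mitochondrial folate enzyme that acts after SHMT2, had log2 fold changes above 0 as fitted, 0.22 ± 0.05, 0.16 ± 0.05 and 0.36 ± 0.05 (adjusted p = 0.0013, 0.0116 and 1.27e-05), past the test in Splice del and A333fs cells. Its exons had a GC content of 42.8%, and with the trend removed its values were 0.02, -0.05 and 0.10, none past the test.

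ATF4 itself (chr22:39520559-39522686) had 331.5, 321.04 and 317.7 CPM in control, 259, 260 and 268 with Splice del, 336, 295 and 268 with C321fs, and 298, 273 and 277 with A333fs libraries. The C321fs libraries spread over the range of both control and the other mutants. Its log2 fold change was -0.30 ± 0.07 for Splice del (adjusted p = 0.00145), -0.11 ± 0.07 for C321fs (0.187) and -0.19 ± 0.07 for A333fs (0.0204), so that only the Splice del value passed the test. The GC content of its exons was 56.6%, and once each library was corrected for exon GC content and length, the value was -0.08 in Splice del cells and 0.08 in both other lines, none past the test.

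The 10 other regulators and stress targets did not move as one. DDIT4, an inhibitor of mTORC1 signalling (chr10:72273919-72276039), had 35.7, 34.2 and 31.3 CPM in control, 52.8, 57.7 and 62.6 with Splice del, 80.7, 69.8 and 57.7 with C321fs, and 52.3, 51.6 and 51.3 with A333fs libraries. All 9 mutant libraries were above the control libraries, and the C321fs libraries spread most. In the fit the log2 fold change was 0.77 ± 0.10, 1.04 ± 0.10 and 0.62 ± 0.10 (adjusted p = 1.17e-05, 1.95e-06 and 7.08e-05). The call in A333fs cells was lost without control replicate 3 (0.56).

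DDIT3, also known as CHOP, a transcription factor of prolonged stress (chr12:57516588-57520517), had 19.9, 18.5 and 19.5 CPM in control, 25.4, 24.6 and 26.8 with Splice del, 20.3, 21.7 and 18.5 with C321fs, and 30.0, 29.0 and 28.2 with A333fs libraries. C321fs overlapped control, while Splice del and A333fs lay above both. Its log2 fold change was 0.41 ± 0.07, 0.06 ± 0.07 and 0.59 ± 0.07 (adjusted p = 0.000152, 0.477 and 4.03e-06), a call in A333fs cells that was lost without the second control or the first A333fs library (down to 0.56). Exons of DDIT3 and MARS overlap by 68 bases on opposite strands, and MARS, the deeper of the pair, was lower in these lines.

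CHAC1, an enzyme that degrades glutathione (chr15:40953438-40956519), had 5.80, 5.84 and 6.84 CPM in control, 3.56, 3.37 and 2.44 with Splice del, 4.90, 4.82 and 4.73 with C321fs, and 4.36, 3.89 and 4.05 with A333fs libraries. The 4 lines did not overlap, in the order control, C321fs, A333fs, Splice del. The log2 fold change was -0.96 ± 0.13, -0.35 ± 0.12 and -0.59 ± 0.12 (adjusted p = 1.56e-05, 0.0234 and 0.000741). The call in A333fs cells sat at the fold change limit and was lost without any 1 of 3 libraries (control replicate 3 and A333fs replicates 2 and 3), with values down to -0.51.

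TRIB3, a pseudokinase that feeds back on ATF4, was lower in each line with log2 fold changes of -0.50 ± 0.07, -0.44 ± 0.07 and -0.57 ± 0.07 (adjusted p = 2.87e-05, 0.00014 and 6.62e-06), short of the fold change limit. With the GC and length trend removed its values were -0.25, -0.22 and -0.17, each still past the test. ATF5 and CEBPB, transcription factors that act beside ATF4, were lower at the adjusted p in the 3 lines as fitted (-0.43 to -0.33). With the GC and length trend removed, ATF5 was at -0.14, -0.22 and 0.00, past the test in the first 2 of these lines, and CEBPB at -0.03, -0.12 and 0.12, past it in none. STC2 was lower in Splice del (-0.27) and C321fs cells (-0.45), and with the trend removed both values passed the test (-0.20 and -0.34). SESN2, a leucine sensor, was lower in Splice del (-0.30) and A333fs cells (-0.51) as fitted, and with the trend removed neither value passed the test (-0.08 and -0.13). CEBPG, a partner of ATF4, passed the adjusted p in A333fs cells (0.23, but -0.05 with the GC and length trend removed), with 0.08 and 0.17 in the other lines, and with the trend removed it was lower in Splice del cells (-0.16). PPP1R15A, the phosphatase subunit that reverses eIF2 phosphorylation, did not pass the test in any line (-0.20 to -0.12). Exons of ATF5 overlap NUP62 and IL4I1, and those of CEBPB overlap CEBPB-AS1, on the other strand.

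The second question was whether these changes followed the GC content of the genes. Across the 37 genes, Spearman's rho between exon GC content and log2 fold change was -0.569, -0.634 and -0.78 (Splice del, C321fs, A333fs), against -0.512, -0.547 and -0.67 across all 14789 genes. These are correlations across genes of the same libraries, and genes are not independent replicates. In the bin of all genes with the lowest GC content, 1 of 10 of like size (median 37.6%), the median log2 fold change was 0.31, 0.33 and 0.31, and in the bin with the highest (64.7%) it was -0.28, -0.25 and -0.50. The genes themselves had a median GC content of 51.7%, against 49.6% for all genes tested. VARS, FARSA, YARS, PHGDH and SHMT2 had a GC content of 55.3% to 62.5%, and RARS, DARS, NARS, TARS, MTHFD2 and CEBPG of 38.8% to 44.2%. Not all genes followed this order. FARSB (42.8%), PSAT1 (43.2%) and IARS (43.8%) were lower in Splice del cells, and DDIT4 (58.0%) was called higher in each line.

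Each library was therefore corrected for this trend and for the one over exon length, and rho across the 37 genes was then -0.076, -0.072 and -0.189. The synthetases drew closer together, from -0.97 to 0.30 before the correction to -0.66 to 0.07 after it in Splice del cells. There 18 of 20 synthetases were lower at the adjusted p and none was higher, in C321fs cells 13 and in A333fs cells 10, again with none higher. Over all 37 genes, 27 were lower and 2 higher in Splice del cells (20.8% and 16.7% of all genes), 20 lower and 1 higher in C321fs cells (16.1% and 11.5%), and 15 lower and 2 higher in A333fs cells (15.3% and 12.9%). The median log2 fold change was -0.25, -0.20 and -0.11.

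Most calls past the fold change limit were lost with the trend removed. In Splice del cells 5 genes were down-regulated, namely VARS (-0.66), CHAC1 (-0.66), ASNS (-0.71), PSAT1 (-0.64) and SHMT2 (-0.68), where 1.41% of all genes were called lower. Of these, PSAT1 was called only with the trend removed. The correction used the deposited lengths, which for VARS and CARS sum copies, so their corrected values rest on too great a length. In C321fs and A333fs cells none of the 37 was down-regulated (0.96% and 1.22% of all genes), although 20 and 15 were lower at the adjusted p. DDIT4 was the 1 up-regulated gene in each line, with log2 fold changes of 1.03 ± 0.07, 1.25 ± 0.07 and 0.94 ± 0.07, where 5.71%, 3.79% and 4.27% of all genes were called higher. DDIT3 kept 0.47 ± 0.06 in Splice del and 0.54 ± 0.06 in A333fs cells. RARS gave 0.07, 0.05 and 0.15 and DARS -0.14, 0.02 and 0.11, not past the test. Whether the GC trend arose in the cells or in the preparation of the libraries was not tested, and the trend separates control from mutant libraries as the lines do.

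**Figure D3:**
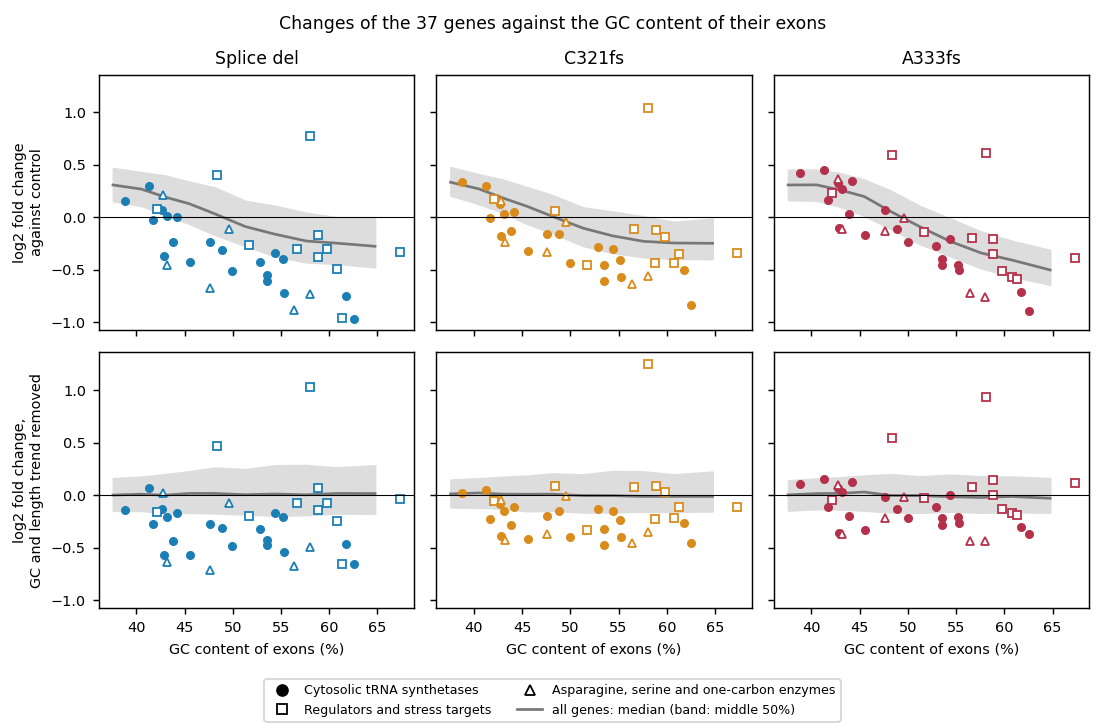
Log2 fold change against control (y axis) by exon GC content in percent (x axis) for the 37 genes in each mutant line, as fitted (top) and corrected for GC content and length (bottom). Symbols give the role of the gene, and the grey line and band give the median and interquartile range of all genes in bins of GC content. The slope in the top row is absent in the bottom row, while most synthetases stay below 0 and DDIT4 stays above the band.

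The third question was whether the 3 mutant lines differed from each other. A333fs against Splice del cells gave the clearest difference. Of the 37 genes 10 were higher in A333fs at the adjusted p and none was lower, where 4.63% and 7.29% of all genes were higher and lower. At an unadjusted p below 0.05 in edgeR's test, 25 were higher and 1 was lower (16% and 20% of all genes). None was called past the fold change limit, by edgeR or DESeq2 (1.03% and 1.97% of all genes). Of the 10 genes 8 were synthetases (TARS, KARS, WARS, IARS, DARS, FARSB, SARS and NARS), and the others were ASNS and PSAT1. The median log2 fold change of the synthetases was 0.21, and 19 of 20 were above 0, with QARS at -0.06. Of the 10, the largest differences were those of ASNS, 0.54 ± 0.07 (adjusted p = 4e-05), of PSAT1, 0.34 ± 0.06 (0.00126), of TARS, 0.34 ± 0.06 (0.00122), and of KARS, 0.31 ± 0.05 (0.000991). In KARS, for example, A333fs libraries had 245, 239 and 249 CPM and Splice del libraries 194, 197 and 201, and the control libraries (239, 237 and 220) overlapped A333fs. In TARS the A333fs libraries (153, 148 and 151) were above both Splice del (122, 119 and 117) and control (112, 123 and 121).

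The difference was also present with the GC and length trend removed. Then 21 of the 37 genes were higher in A333fs than in Splice del cells at the adjusted p, 17 of them synthetases, and none was lower. Of all genes 8.74% were higher and 7.32% lower. The median of the synthetases was again 0.21. Values were 0.50 ± 0.05 for ASNS, 0.29 ± 0.05 for VARS and 0.28 ± 0.05 for YARS. With the trend removed, QARS was at 0.00.

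**Figure D4:**
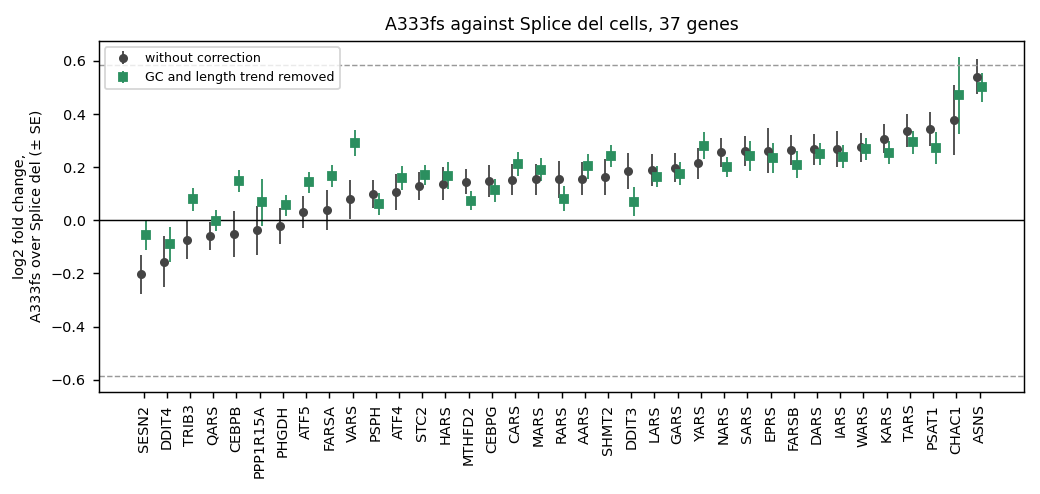
Log2 fold change of A333fs over Splice del cells (y axis, with standard error) for each of the 37 genes, as fitted (grey circles) and corrected for GC content and length (green squares). Dashed lines mark the fold change of 1.5. Most genes lie above 0 in both fits, with ASNS highest at 0.54 and 0.50.

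Splice del and C321fs cells differed in fewer of these genes. CHAC1 was the 1 called gene, lower in Splice del cells by -0.61 ± 0.13 on the log2 scale (adjusted p = 0.00522), where 0.879% of all genes were called lower and 1.76% higher. At the adjusted p alone 2 genes were lower, CHAC1 and ASNS (-0.34 ± 0.07, 0.00262), and DDIT3 was higher in Splice del (0.34 ± 0.07, 0.00319), against 2.14% and 4.18% of all genes. The CHAC1 call was lost on leaving out any of 5 libraries of the 6, with values down to -0.47. No synthetase passed the adjusted p in edgeR's test as fitted. With the trend removed 5 genes were lower, among them CARS (-0.20), VARS (-0.20) and FARSA (-0.20), and 1 was higher, against 5.37% and 6.82% of all genes. At an unadjusted p below 0.05, 14 of the 37 genes were lower and 2 higher in Splice del cells (12.8% and 13.3% of all genes).

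A333fs against C321fs cells gave no call by edgeR or DESeq2 (2.47% and 3.08% of all genes were called higher and lower by edgeR), and 14 genes were higher and 4 lower at an unadjusted p below 0.05 (17.6% and 21.7% of all genes). At the adjusted p 5 genes were higher in A333fs cells, namely TARS (0.29), KARS (0.23), DDIT3 (0.53), STC2 (0.31) and MTHFD2 (0.20), and 2 were lower, DDIT4 (-0.42) and SESN2 (-0.32), against 6.8% and 8.89% of all genes. For DDIT3 the log2 fold change was 0.53 ± 0.07 (adjusted p = 3.34e-05), and the 3 A333fs libraries were above the 3 C321fs libraries. With the trend removed 10 genes were higher and 1 lower (11.2% and 9.68% of all genes), and SESN2 was no longer past the test (-0.16).

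Further genes of the pathway were taken from lists beside the 37, and their counts at the adjusted p read against the shares of all genes given above (22.4%, 20.7% and 26.4% lower and 18.7%, 16.1% and 21% higher in the 3 lines). Of 12 amino acid transporters linked to ATF4, 6 were lower and 1 higher at the adjusted p in Splice del, 7 lower and 3 higher in C321fs, and 7 lower and 1 higher in A333fs cells. SLC7A5, the light chain of the leucine transporter LAT1, was down-regulated in each line, from 561 ± 38.4 CPM (SD, n = 3) in control to 285 ± 12.7, 359 ± 7.09 and 295 ± 9.66 in the same order of lines (log2 fold change -0.98, -0.64 and -0.93). With the trend removed it was at -0.75, -0.41 and -0.52, a call in Splice del cells only. Its partner SLC3A2 (-0.60) was called in Splice del, and SLC7A1, a transporter of cationic amino acids, in Splice del (-0.71) and A333fs cells (-0.61), of which the Splice del call of SLC7A1 was kept with the trend removed. Of the 12 transporters 3, 2 and 3 were called lower (4.53%, 2.26% and 6.81% of all genes) and 0 higher in each line. The lowest value in A333fs cells, -1.02, was that of a transporter not named here. With the trend removed 2, 0 and 1 were called lower (1.41%, 0.96% and 1.22% of all genes). In that fit 0, 1 and 0 were called higher (5.71%, 3.79% and 4.27%). Of 17 mitochondrial tRNA synthetases 11, 9 and 10 were lower at the adjusted p and 1, 0 and 4 higher. SARS2 was called in Splice del (-0.63) and A333fs (-0.59) and VARS2 in A333fs (-0.65), and with the trend removed none of the 17 was called. In that fit 8, 6 and 5 of the 17 were still lower at the adjusted p (20.8%, 16.1% and 15.3% of all genes). Higher were 0, 0 and 1 (16.7%, 11.5% and 12.9%). Of 17 further serine, proline and one-carbon enzymes 10, 10 and 8 were lower and 0, 1 and 1 higher. MTHFD1L was called in Splice del (-0.82) and A333fs (-0.71), as was PYCRL (-0.81 and -0.80), and with the trend removed the calls of MTHFD1L were kept (-0.75 and -0.62) and those of PYCRL lost (-0.56 and -0.35).

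As fitted, the upstream genes gave no single direction, and the same shares of all genes apply. Of 17 genes for eIF2, its kinases and their regulators, 4 were higher and 5 lower in Splice del, 3 higher and 4 lower in C321fs, and 4 higher and 4 lower in A333fs cells at the adjusted p. EIF2AK3, the kinase PERK, was up-regulated in Splice del cells (24.5 ± 2.06 against 15.7 ± 0.796 CPM, log2 fold change 0.64), and GCN1, an activator of the kinase GCN2, was down-regulated in Splice del (-0.64) and C321fs cells (-0.65). IMPACT, an inhibitor of GCN2, was up-regulated in A333fs cells (0.62). With the trend removed none of the 17 was called in any line, with 0.46 for EIF2AK3, -0.43 and -0.38 for GCN1 and 0.30 for IMPACT. In that fit 7, 6 and 4 of the 17 were lower at the adjusted p (20.8%, 16.1% and 15.3% of all genes). Higher were 2, 1 and 2 (16.7%, 11.5% and 12.9%). Of 22 other ATF4 targets 4 were higher and 8 lower in Splice del, 5 higher and 6 lower in C321fs, and 3 higher and 9 lower in A333fs cells. Past the fold change limit 1 was called higher and 3 lower in Splice del (6.21% and 4.53% of all genes). In C321fs cells 3 were called higher and 2 lower (4.63% and 2.26%), and in A333fs cells 1 and 3 (5.46% and 6.81%). The lowest log2 fold changes were -0.96, -0.75 and -0.91. Among the called genes were KLHL24 (0.92 in Splice del and 1.03 in A333fs), VLDLR (2.46 in C321fs, from 0.422 to 2.35 CPM) and NUPR1 (-0.75 in C321fs). Those called lower in Splice del and A333fs cells are not named here. The calls of KLHL24 and VLDLR were kept with the trend removed (0.61, 0.74 and 2.44), and that of NUPR1 was lost (-0.48). In that fit 1, 3 and 2 of the 22 were called higher (5.71%, 3.79% and 4.27% of all genes). Called lower were 1, 0 and 0 (1.41%, 0.96% and 1.22%). Of 17 genes of the ATF6 and XBP1 arms of the unfolded protein response 7, 4 and 6 were higher and 2, 1 and 3 lower. DNAJC3 was called higher in Splice del (0.62) and SDF2L1 lower in A333fs cells (-0.69), both lost with the trend removed (0.33 and -0.21). In that fit 9, 5 and 5 of the 17 were higher at the adjusted p (16.7%, 11.5% and 12.9% of all genes). Lower were 0, 2 and 3 (20.8%, 16.1% and 15.3%). Of 4 genes for the synthetase complex and tRNA export 0, 1 and 2 were higher and 1 was lower in each line, with medians of 0.14, 0.20 and 0.24. AIMP2, a scaffold of that complex, was called lower in Splice del cells (-0.66), and not with the trend removed (-0.50), where the medians of the 4 were -0.09, -0.09 and -0.07.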

How the data were processed

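RNA-seq counts of 12 libraries of T47D cells were processed, 3 for each of 4 lines. ChIP-seq libraries were not used here. After trimming with Trimmomatic and alignment to hg38, the authors deposited raw counts of properly paired fragments per gene from featureCounts 1.6.4, not normalized and counted without strand. The submitters' notes and the file header differ on the aligner. Exon coordinates in the file matched hg38, from which the GC content of exons was taken.

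Libraries were grouped by their labels. Genes were kept with filterByExpr (14789 of 26485), scaled by TMM. The quasi-likelihood model of edgeR 4.0.16 under R 4.3.3 was fitted to the 12 libraries at once, with 1 coefficient per line (glmQLFit, glmQLFTest). Benjamini-Hochberg adjusted p-values were taken over all genes tested. Calls required an adjusted p under 0.01 with a fold change of more than 1.5. CPM and FPKM were computed from the counts and are given as mean ± SD. A count of at most 3 was taken as the floor. No interval was computed for single counts, since PCR duplicates cannot be told apart. The trend over GC content and exon length was removed with loess offsets per library (span 0.3), fitted to genes outside the lists. Alternatives were other normalizations, filters and thresholds, DESeq2 1.42.0, the libraries of a pair alone, a replicate block and leaving out each library.

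The genes and lists were chosen with earlier results of these data known. Named with values were all genes called in any comparison, the extremes of each group, ATF4, and for the other lists at most 3 called genes per list, line and direction. FARSB, PSAT1, TARS, KARS and the remaining genes of the 37 were named to account for every gene. The procedure was tested on simulated counts, and the share of changed genes it had to recover there was lowered from 0.95 to 0.9 after 1 of 4 simulations came out just under the first value.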

Additional observations from a re-analysis of the deposited data

Results flagged for a closer look

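CHAC1 differed between 2 mutant lines that were each compared with the same control. Its log2 fold change was -0.61 in Splice del against C321fs cells (edgeR's quasi-likelihood test, adjusted p = 0.00522), with levels of 3.56, 3.37 and 2.44 CPM in Splice del and 4.90, 4.82 and 4.73 CPM in C321fs libraries. It was the 1 gene of the 37 called between mutant lines. The call was lost when Splice del replicate 2 or 3 or any C321fs library was left out, with values of -0.72 to -0.47, and when the GC and length trend was removed (-0.54, adjusted p = 0.011).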

How the results depend on the processing

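Values are given in the order Splice del, C321fs and A333fs against control unless stated. The 95 values of named genes were those past the adjusted p as fitted in any comparison, and ATF4 against control. The threshold here is that of a call, so an uncalled value that lost the adjusted p counts as kept. Most of the 95 were not calls. With the GC and length trend removed, 14 of the 95 lost their call, 1 became a call and 5 turned direction, with or without the replicate block. The other 75 kept their direction and side of the threshold. With library totals alone 82 did, and with upper-quartile normalization 90. Each of the other settings that kept all libraries and the fold change limit gave 93 to 95. With the GC and length trend removed, down-regulated genes numbered 5, 0 and 0, up-regulated genes in A333fs cells 1, and the median log2 fold change in Splice del cells was -0.25, and the same numbers were obtained with the replicate block and the trend removed together (-0.25). With library totals alone, 3, 1 and 2 genes were down-regulated and 2 were up-regulated in Splice del cells, and the medians were -0.14, -0.0683 and -0.0199. With upper-quartile normalization 1 gene was down-regulated in C321fs cells and the medians were -0.24, -0.15 and -0.0559. The median of all genes rose to 0.22, 0.19 and 0.16 with library totals alone and to 0.12, 0.11 and 0.12 with upper-quartile normalization, so relative to all genes the 37 stayed lower. Without the fold change limit 25, 18 and 15 genes were lower and 4, 3 and 8 higher.

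Between mutant lines, Splice del against C321fs gave 0 down-regulated genes with the pair's libraries alone, with the trend removed, and with block and trend together, and 2 lower and 1 higher without the fold change limit. A333fs against C321fs gave 5 higher and 2 lower without that limit, and its median was 0.10 with upper-quartile normalization, 0.10 without a filter and 0.0946 in DESeq2. A333fs against Splice del gave 10 higher without the limit, and its median was 0.11 with library totals alone.

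Leaving out 1 library gave 7 to 9, 1 to 5 and 4 to 6 down-regulated genes against control and 1 to 2 up-regulated genes in A333fs cells. In C321fs cells the count was 1 without control replicate 2 and 5 without control replicate 3, and in A333fs cells 1 gene was up-regulated without control replicate 2, control replicate 3 or A333fs replicate 1. Medians were -0.36 to -0.30, -0.27 to -0.22 and -0.21 to -0.10. Splice del against C321fs gave 0 to 1 down-regulated genes and medians of -0.12 to -0.0845, A333fs against C321fs medians of 0.0599 to 0.11, and A333fs against Splice del 0 to 1 up-regulated genes and medians of 0.14 to 0.21.

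Among the 95 values, directions turned for ATF4 in C321fs cells (0.0553 with library totals alone, 0.0774 with the trend removed, 0.0773 with block and trend), and in A333fs cells with the trend removed for ATF4 (0.0810), ATF5 (0.0041), CEBPB (0.12) and CEBPG (-0.0460), and with block and trend for ATF4 (0.0813), ATF5 (0.0040), CEBPB (0.12) and CEBPG (-0.0463). Over all 37 genes, passed or not, the sign turned with the trend removed in 6, 8 and 9 genes, of which 0, 0 and 3 had passed the test before and 4, 0 and 1 passed it after. The cause was not tested. The replicate block alone changed none of the 95 values' calls, with 8, 3 and 5 down-regulated genes and medians of -0.33, -0.24 and -0.17. The labels do not say whether libraries of equal replicate number were handled together. Deviations from the line means correlated at -0.00918 on average in 18 pairs of equal number, with 2 pairs over 0.1. A low correlation cannot decide how the libraries were handled. CHAC1, at 2.44 to 6.84 CPM, had the lowest depth of the 37 genes and the largest standard errors.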
